A study of Rattus norvegicus with 180 samples.

Results

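Skin was 1 of 55 organs in an atlas of miRNA expression in the male rat, and was represented by 3 of the 180 arrays, the perfused rats 4, 5 and 6. The organ named in the sample title decided which arrays these were. Each skin value was set against the other 54 organs of the same 3 rats (162 arrays), with each organ averaged first, and all 717 miRNAs of the array design were read. The rats of every group used here were Sprague-Dawley males of 10 weeks whose blood had been flushed out with saline before the organs were collected. Total RNA was labelled with the dye Cy3 and hybridized to 1-color Agilent miRNA arrays. Arrays from 5 organs of 3 rats without perfusion did not include skin and entered only an alternative fit. The body site and the layers of skin that were taken are not given in the sources used here, and the sample table of the study files skin with 13 other organs under smooth or skeletal muscles. The comparison therefore asked which epithelial and which muscle miRNAs this skin carried, and how far it resembled muscle.

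A miRNA is a short RNA that is cut from a hairpin and pairs with messenger RNAs, mainly through its seed, bases 2 to 8, and lowers the protein they give. Skin consists of a stratified squamous epithelium (the epidermis and its hair follicles) over a dermis of fibroblasts, vessels and nerves. In the rat a thin sheet of striated muscle, the panniculus carnosus, lies under the dermis. In the epidermis miR-203 is known to restrain the stem cell factor p63 as keratinocytes leave the basal layer, and miR-205 marks basal keratinocytes. miR-1, miR-133a, miR-133b and miR-206 are the miRNAs of striated muscle. miR-1 and miR-133 are made in heart and skeletal muscle, while miR-206 is known from skeletal muscle. miR-199a and miR-214 come from a shared transcript that is typical of mesenchymal cells. All these RNAs were measured in bulk tissue, in which fewer cells of a type and less of a miRNA per cell cannot be told apart.

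The mature sequences of the 5 groups on which the results turn were taken from RefSeq with coordinates on GRCr8. No entry was found under the names looked up for miR-200a, miR-200b, miR-429 and miR-136, so their sequences are not given. The capitals mark the seed. A name ending in _v15.0 belongs to a probe set for an older database form of the same miRNA, and which form RefSeq lists was not checked. The epithelial sequences given below share no seed with each other, and seeds within the miR-200 family were not compared. miR-203 lies at chr6:137020756-137020777 on the plus strand, miR-205 at chr13:107564588-107564610 on the minus strand, and miR-31 at chr5:108714906-108714927 on the minus strand. miR-200c lies at chr4:159209969-159209989 on the minus strand, 407 bases from miR-141.
miR-203: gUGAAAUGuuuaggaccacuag
miR-205: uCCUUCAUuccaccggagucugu
miR-31: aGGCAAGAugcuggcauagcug
miR-200c: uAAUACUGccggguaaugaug

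The muscle sequences form 2 seed pairs, GGAAUGU in miR-1 and miR-206 and UUGGUCC in miR-133a and miR-133b. Each genomic neighborhood holds a member of either pair. miR-1 (chr18:2160339-2160360, minus strand) and miR-133a lie 2431 bases apart on chromosome 18, and miR-206 (chr9:30590747-30590768, plus strand) and miR-133b lie 3860 bases apart on chromosome 9. miR-133a and miR-133b are identical at 21 of 22 positions, so signal of one on the probes of the other cannot be told apart. miR-1 and miR-206 are identical at 19 of 22 positions.
miR-1: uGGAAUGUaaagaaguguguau
miR-206: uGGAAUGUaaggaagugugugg
miR-133a: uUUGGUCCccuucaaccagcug
miR-133b: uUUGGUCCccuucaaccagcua

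miR-199a-5p (chr13:77116255-77116277) and miR-214 (chr13:77121713-77121733) lie on the plus strand with 5435 bases between them, and miR-199a-3p is the other arm of the miR-199a hairpin. miR-196a, miR-196b and miR-196c share a seed and are identical at 21 of 22 positions in each pair, although their genes lie on chromosomes 7, 4 and 10. miR-195, miR-497 and miR-322 share the seed AGCAGCA with miR-16 and miR-15b.
miR-199a-5p: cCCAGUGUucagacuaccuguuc
miR-199a-3p: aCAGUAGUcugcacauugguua
miR-214: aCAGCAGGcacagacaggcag
miR-196a: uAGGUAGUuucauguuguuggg
miR-196b: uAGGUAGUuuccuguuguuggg
miR-195: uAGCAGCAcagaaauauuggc
miR-497: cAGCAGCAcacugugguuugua
miR-322: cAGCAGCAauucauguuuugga

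Values are normalized signal intensities, on a scale where a value under the floor of 10.8 has no order, and differences are in log2 units. A miRNA was tested if it was detected on all arrays of at least 1 organ (345 miRNAs), and it was called at an adjusted p under 0.05 in limma. The standard error (SE) of each difference is the spread between rats, pooled over the organs, with 3 rats per organ. The test therefore places skin against the mean of these 54 organs and not against organs in general. Organs held at the floor for a miRNA add little spread to the pool, so the SE can be smaller than the scatter of the organs compared. The 3 skin arrays detected 190, 173 and 175 miRNAs, within the 86 to 244 of the 180 arrays, lay on a slide each, and were scanned on 3 different days. Of the tested miRNAs, 150 were not detected on any skin array, 30 were detected on 1 or 2 and the rest on all 3.

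Skin carried 2 sets of miRNAs at once, those listed for stratified epithelium and those listed for striated muscle. The first set was not confined to such epithelium, since miR-203 and miR-31 were also high in duodenum, jejunum and ileum. Against the other 54 organs 51 of 345 tested miRNAs were higher in skin (14.8%) and 194 were lower (56.2%). The highest differences belonged to miR-203 (5.26), miR-1 (5.20), miR-205_v15.0 (5.02), miR-205 (4.51), miR-133b (4.39) and miR-206 (4.38). The higher calls were mostly well detected, 48 of 51 on all skin arrays, and skin stood among the first 5 organs for 17 of them and the first 10 for 31. The lower calls were mostly absences, since 109 of the 194 were not detected on any skin array and 67 were detected on all of them. The median difference over all tested miRNAs was -0.28, and it moved by 0.50 without scaling and by 0.42 in the authors' table, so lower calls of small size depend on the scaling.

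**Figure D1:**
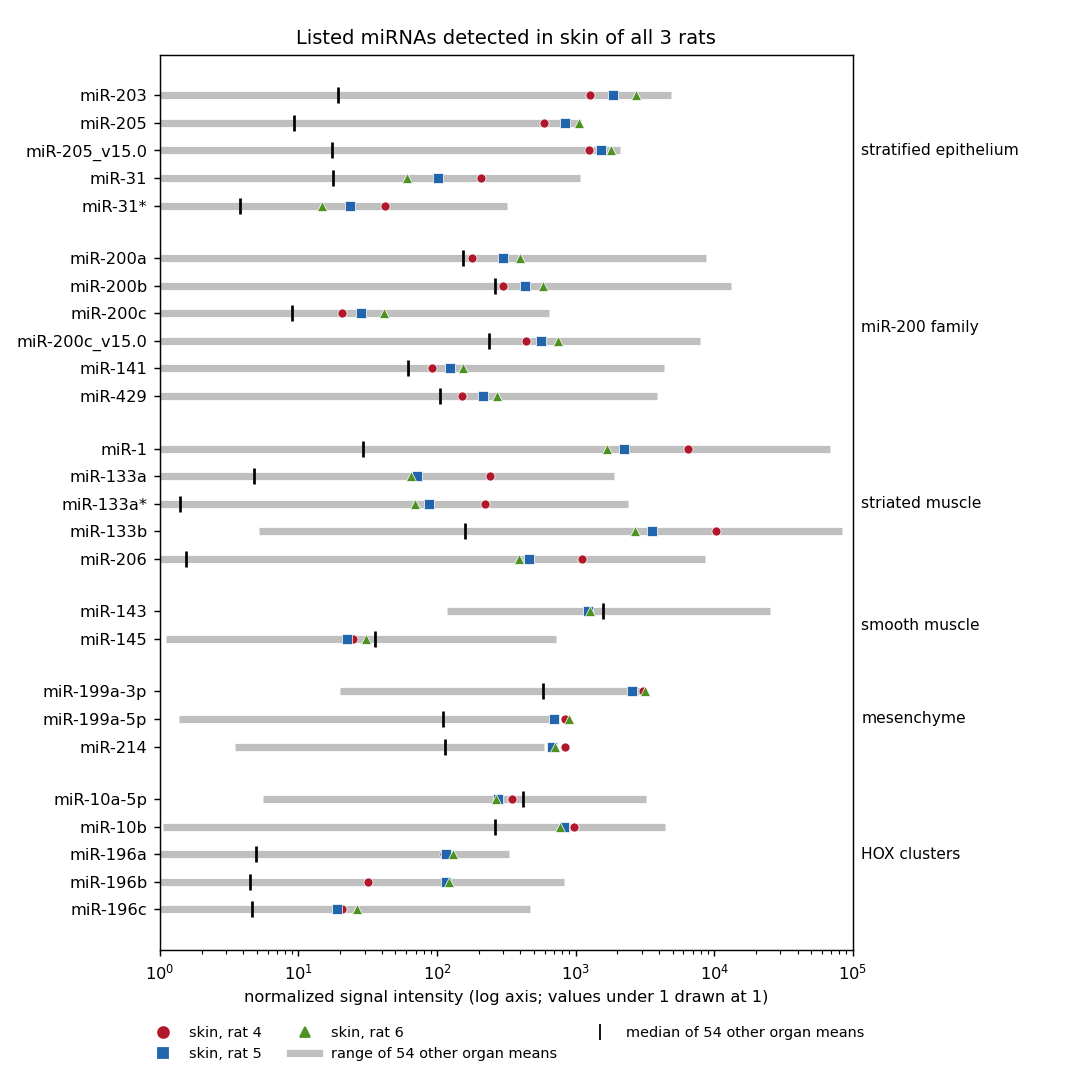
Normalized signal intensity (log axis) of the listed miRNAs detected in the skin of all 3 rats. Symbols are the 3 skin arrays, gray bars the range of the 54 other organ means and ticks their median; miR-203 and miR-205 lie near the top of the bar, miR-143 below the tick, and the striated muscle miRNAs of rat 4 lie apart from those of rats 5 and 6.

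miR-203 gave 1273, 1865 and 2719 in the skin of rats 4, 5 and 6 (1952 ± 727, SD, n = 3), against a median of 19.2 over the other organs. Skin was in place 4 of 55 organs, behind esophagus (median 4725), the anterior stomach (2081) and Harderian gland (2151). The ranges of all of the first 8 organs, which also included jejunum, duodenum, ileum and tongue, overlapped that of skin, and rectum in ninth place did not. The miR-203 difference of 5.26 ± 0.18 (SE) had an adjusted p of 7.2e-51 in limma and lay between 3.26 and 5.95 under the alternatives tried.

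miR-205 gave 595, 833 and 1064 in skin, and its older form miR-205_v15.0 1256, 1526 and 1795. For miR-205 the eyeball, which holds the cornea, was first (905 to 1287) and skin second. For miR-205_v15.0 esophagus was first (993 to 3123) and skin second, and in both cases the ranges overlapped. Esophagus overlapped skin in miR-205 (356 to 1196), as did tongue in seventh place (318 to 602), and the 3 organs between them did not. In the authors' table and after quantile normalization skin was first for miR-205.

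miR-31, which keratinocytes make in wounded and inflamed skin, gave 208, 102 and 61.2. Skin was in ninth place, behind duodenum (808 to 1452), glandular stomach (804 to 1159), ileum, jejunum, liver, aorta, eyeball and vein. The order of the rats was the reverse of that in miR-203. Its difference from the other organs was 1.83 ± 0.27 (adjusted p = 3.3e-09 in limma), falling to 0.16 (adjusted p = 0.53) with normexp background correction. The passenger strand miR-31* gave 41.9, 23.4 and 14.7, and its difference turned to -0.49 with normexp correction and to -0.22 with a floor 4 times as high. All 5 tested members of the squamous list of 6 were higher in skin than in the other organs, with a median of 4.51 beside -0.28 over all tested miRNAs, and miR-203* was not detected on any array.

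The miRNAs of epithelium in general were at middle levels in skin. miR-200b, a repressor of the transcription factors ZEB1 and ZEB2 that switch epithelial cells to a mesenchymal state, gave 300, 433 and 578 in skin. That put skin in place 25 of 55, and the ventral prostate, in first place, gave 10212 to 15427. miR-200c_v15.0 gave 439, 559 and 745 (place 22), miR-200a 179, 298 and 396 (place 24), miR-429 151, 216 and 272 (place 23) and miR-141 92.2, 125 and 154 (place 22). Of 8 tested members of the miR-200 family, 4 were higher in skin, 1 was lower and 3 were not called, with a median of 0.73. Over all tested miRNAs 14.8% were higher and 56.2% lower. The sign depended on the background, since the differences of miR-200a (0.95), miR-200b (1.26) and miR-429 (1.03) turned to -0.37, -0.10 and -0.32 with normexp correction, and that of miR-200c_v15.0 fell from 1.68 to 0.36. In the miR-183 cluster, known from sensory cells, 2 of 3 tested members were higher and 1 lower. miR-96 (83.4, 132 and 182) and miR-183 (41.4, 56.1 and 66.2) were higher by 0.76 and 0.56 and turned to -0.36 and -0.59 with that correction. miR-182, not detected on any skin array, was lower. It turned to 0.090 without scaling, 0.16 in the authors' table and 0.40 with a floor 4 times as low. The calls of miR-200a, miR-96 and miR-183 were also lost in differences within the rat, whose size was unchanged (0.95, 0.76 and 0.56, adjusted p = 0.066, 0.098 and 0.073). The same 3 calls were lost without the skin array of rat 5 (0.89, 0.73 and 0.52) and without that of rat 6 (0.69, 0.50 and 0.40). These 3 and the calls of miR-200b and miR-429 were lost with the categories of organs averaged first (miR-200b 0.68, miR-429 0.56), against the organs outside the muscle category alone (0.73 and 0.60) and with a floor 4 times as high (0.33 and 0.065), where miR-183 turned to -0.36.

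miR-192, miR-194, miR-215 and miR-375, which mark gut, kidney, liver and endocrine or glandular epithelium, were not detected on any skin array. All 5 tested probe sets of this list were lower in skin than in the other organs (median -1.52), where 56.2% of all tested miRNAs were lower. Of these 5, 4 were lower than in esophagus, and 0 were called against tongue or limb muscle. miR-192 was detected on 112 of the 162 other arrays and was highest in duodenum, with a mean of 25731. Of the other miRNAs described in keratinocytes 1 of 6 was higher (miR-24, 2183, 2345 and 3132) and 2 were lower (miR-34a and miR-34c). Beside these counts stand 14.8% higher and 56.2% lower over all tested miRNAs. miR-21 gave 2274, 2603 and 2879, and its difference from the other organs was -0.21 ± 0.17 (adjusted p = 0.26).

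The striated muscle miRNAs were present in the skin of every rat, at unequal levels. miR-1 gave 6520, 2227 and 1679 in rats 4, 5 and 6, and miR-133b gave 10262, 3540 and 2688. miR-206 gave 1109, 457 and 393, and miR-133a 240, 71.6 and 65.3. Rat 4 stood well above the other two in each of them, and rats 5 and 6 lay close together. Skin was ninth of 55 organs for miR-1 and miR-133b, directly behind tongue and esophagus and ahead of the eyeball, and seventh for miR-206.

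Against the other 54 organs miR-1 was higher by 5.20 ± 0.76 (adjusted p = 2.9e-09 in limma), miR-133b by 4.39 ± 0.72 (adjusted p = 7.7e-08) and miR-206 by 4.38 ± 0.49 (adjusted p = 1.2e-13). Of 8 tested members of the striated list of 14, 5 were higher, 2 lower and 1 not called, with a median of 2.18. The shares over all tested miRNAs were 14.8% higher and 56.2% lower. With normexp correction the differences of miR-133a (2.11) and miR-133a* (2.25) fell to 0.04 and 0.07 and were no longer called (adjusted p = 0.856 and 0.775). The heart miRNAs were not part of the set in skin. miR-208 and miR-208b, which are encoded in myosin genes of the heart and of slow muscle, were not detected on any skin array, and miR-499 (8.43, 4.74 and 7.47), from a slow myosin gene, was detected on 1 of 3.

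Skin and muscle were compared directly with the limb muscles femoris, gastrocnemial and soleus (9 arrays). Here 62 of 345 tested miRNAs were higher in skin (18.0%) and 75 were lower (21.7%), and the median difference was 0. miR-1 was lower in skin by 3.97 ± 0.87 (adjusted p = 5.7e-05 in limma), miR-133b by 3.82 ± 0.83 (adjusted p = 4.2e-05) and miR-206 by 3.40 ± 0.56 (adjusted p = 1.2e-07). Of the striated list 6 of 8 tested members were lower in skin and 0 higher (median -3.61). After quantile normalization the miR-1 difference was -1.47 (adjusted p = 0.20) and that of miR-133b -1.27 (adjusted p = 0.33), both past the threshold otherwise.

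Within a rat as the sample titles number it, the skin of rat 4 held 12.4% of the miR-1 signal of the limb muscles with the same number, that of rat 5 held 4.50% and that of rat 6 3.46%. For miR-133b the shares were 14.0%, 5.37% and 4.03%, and for miR-206 they were 21.5%, 7.97% and 4.49%. The mean miR-1 signal of the 3 limb muscles lay between 48550 and 52667 in each rat. Soleus alone gave 37675, 18587 and 20837 and was, like skin, highest in rat 4, and of it the skin held 17.3%, 12.0% and 8.06%. The limb muscle arrays titled as rat 5 carry the number of rat 6 in another label, so the shares of rat 5 rest on the title. Without these arrays miR-1 was lower in skin than in limb muscle by 4.01 (adjusted p = 0.00023). miR-378* and miR-378, made from an intron of the metabolic coactivator gene Ppargc1b, were lower in skin than in limb muscle by 3.29 and 2.87.

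In the other direction the epithelial miRNAs separated skin from limb muscle. miR-203 was detected on 1 of 9 limb muscle arrays and was higher in skin by at least 115-fold (adjusted p = 4.7e-60 in limma). miR-205_v15.0, detected on 2 of the 9, was higher by at least 88.2-fold, and miR-205, detected on 1, by at least 49.9-fold. Of the miR-200 family miR-200c_v15.0 (at least 35.1-fold), miR-200b (26.1-fold), miR-200a (17.1-fold), miR-429 (12.8-fold) and miR-141 (7.49-fold) were not detected on any of the 9 limb muscle arrays, so that these folds are lower bounds. All 5 tested members of the squamous list and 6 of 8 of the miR-200 family were called higher, and 0 lower, beside 18.0% higher over all tested miRNAs. With normexp correction miR-31 lost its call (0.64, adjusted p = 0.12), and miR-31* and miR-200c turned to -0.30 and -0.26.

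**Figure D2:**
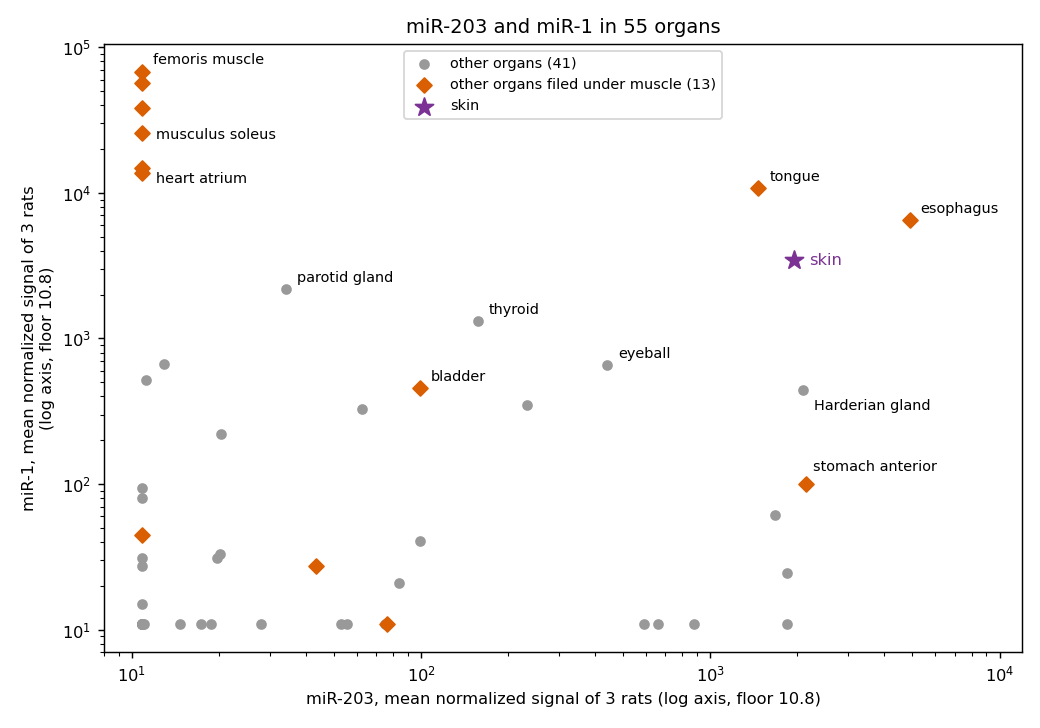
Mean normalized signal of miR-203 (x axis) and miR-1 (y axis) in 55 organs, 3 rats each, both axes logarithmic with values under 10.8 drawn at the floor. Skin (star) lies with tongue and esophagus at the upper right, limb muscles and heart at the upper left and the anterior stomach at the lower right.

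Tongue and esophagus of the rat also have a stratified squamous epithelium with striated muscle beneath it, and only these 2 and skin were among the first 10 organs for both miR-203 and miR-1. Against tongue 55 of 345 tested miRNAs were higher in skin (15.9%) and 35 were lower (10.1%), again with a median of 0. Tongue gave 10475, 10224 and 11448 for miR-1 in rats 4, 5 and 6, so skin held 62.2%, 21.8% and 14.7% of it. The difference of miR-1 was -1.88 ± 1.07 (adjusted p = 0.23), that of miR-133b -2.09 ± 1.01 (adjusted p = 0.13) and that of miR-206 -1.61 ± 0.69 (adjusted p = 0.074). Skin was below tongue in each rat for all of them, and miR-133a (-1.87, adjusted p = 0.00085) and miR-133a* (-2.14, adjusted p = 4.8e-05) passed the threshold.

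The pooled error of miR-1 includes organs whose own arrays scattered. miR-1 gave 15.1, 2123 and 4386 in the 3 parotid gland arrays, 13.1, 18.0 and 3895 in those of thyroid and 4.53, 4.98 and 1989 in those of optic nerve. With these organs and pancreas left out, a choice made after the values were seen, miR-1, miR-133b and miR-206 were lower in skin than in tongue (adjusted p = 0.029, 0.0022 and 0.0073). Among the other alternatives miR-206 was called under 5 (adjusted p = 0.00041 to 0.036, the latter without the skin array of rat 4), miR-133b under 2 (0.020 and 0.037) and miR-1 under normexp correction (0.028). Of the squamous list 3 of 5 tested members were higher in skin than in tongue and 0 lower (median 0.86). miR-203 of skin was 84.4%, 114% and 217% of that in tongue of the same rat (difference 0.35 ± 0.26, adjusted p = 0.43), and miR-205 was higher by 0.88 (adjusted p = 0.018), which was lost under 8 alternatives (0.37 to 1.05), among them the loss of the skin array of rat 5 or of rat 6. miR-31 was higher by 1.03 (adjusted p = 0.031), a call lost under 8 alternatives as well (0.38 to 1.24), among them without the skin array of rat 4 (0.57, adjusted p = 0.43) or of rat 5 (1.08, adjusted p = 0.050), and miR-31*, detected on 1 of 3 tongue arrays, by at least 1.81-fold. Of the miR-183 cluster miR-183 was called (1.20, adjusted p = 0.0016), which was lost with scaling over all miRNAs (0.69), a floor 4 times as high (0.33) and normexp correction (-0.013). miR-96 was not called (0.98, adjusted p = 0.052), but passed under 7 alternatives, among them slide as a fixed block (2.50) and without the skin array of rat 4 (1.28, adjusted p = 0.019). Of the miR-200 family 1 of 8 tested members differed, miR-200c by 1.16. With normexp correction miR-200c turned to -0.13 and miR-31* to -0.20 (adjusted p = 0.75 for both). With slide as a fixed block miR-200a (3.77), miR-200b (3.41), miR-200c_v15.0 (3.18) and miR-429 (3.08) were called higher than in tongue as well.

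Against esophagus 35 of 345 tested miRNAs were higher in skin (10.1%) and 33 were lower (9.57%), with a median of 0. miR-203 was lower in skin by 1.18 ± 0.26 (adjusted p = 0.00011 in limma), at 27.0%, 92.7% and 34.3% of esophagus of the same rat. The ranges overlapped (1273 to 2719 in skin, 2012 to 7927 in esophagus), and the SE is pooled over all organs, not these alone. Without scaling miR-203 was lower by 0.49 (adjusted p = 0.42). miR-205 (0.18 ± 0.30) and miR-205_v15.0 (-0.31 ± 0.28) did not pass the threshold, nor did any of the 8 miR-200 family members, whose median was -0.42. With slide as a fixed block miR-200a (1.98, adjusted p = 0.020) and miR-200c_v15.0 (1.79, adjusted p = 0.0060) were called higher in skin. With normexp correction miR-200b (-0.88) and miR-429 (-0.92) were called lower, as were 292 of the 345 tested miRNAs, whose median shifted by -1.07.

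miR-1 of skin was 84.4%, 26.0% and 52.5% of that in esophagus (difference -1.04 ± 1.07, adjusted p = 0.76). miR-133a and miR-133a* were lower in skin by 1.27 and 1.40 (adjusted p = 0.042 and 0.013). Those 2 calls were lost under several alternatives, including the loss of single rats. Where they were lost, the differences were -1.27 to -0.58 for miR-133a and -1.40 to -0.71 for miR-133a*. Without parotid gland, thyroid, optic nerve and pancreas, miR-133b (-1.59, adjusted p = 0.031) and miR-206 (-1.74, adjusted p = 0.0038) were called as well, and miR-1 was not (adjusted p = 0.41). miR-206 also passed under 5 other alternatives (adjusted p = 0.00019 to 0.040, among them without the skin array of rat 4, 0.027) and miR-133b under normexp correction (0.018). miR-192 was lower in skin than in esophagus by at least 8.50-fold on the mean of log2 values. Esophagus gave 179, 24.8 and 176 in rats 4, 5 and 6, so the bound is smaller for rat 5.

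**Figure D3:**
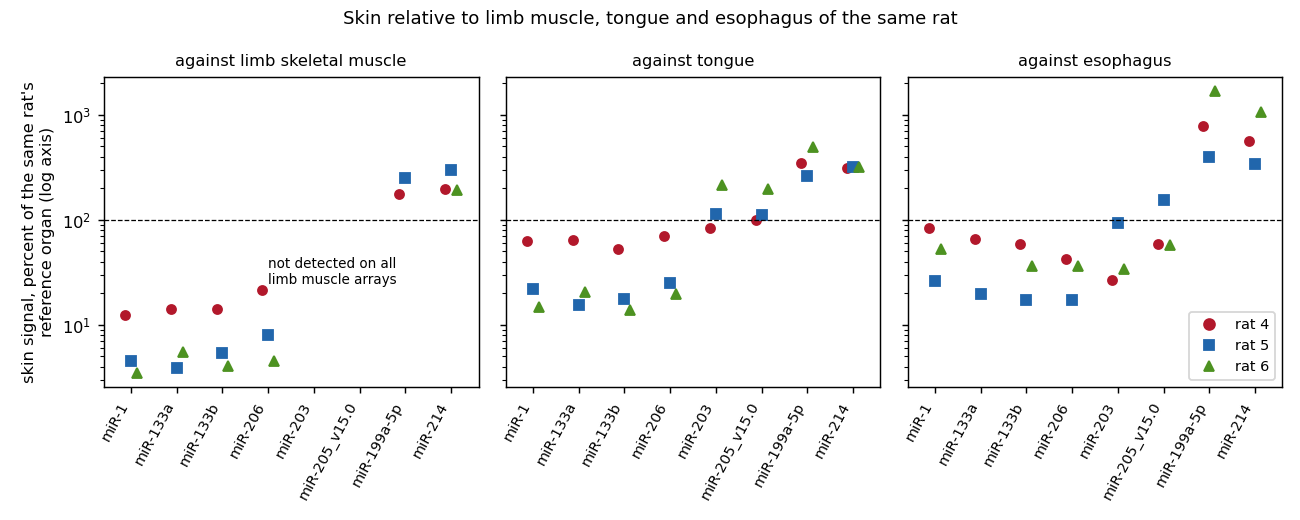
Skin signal as a percent of limb skeletal muscle, tongue and esophagus of the same rat (log axis, 1 symbol per rat, dashed line at 100%; a rat has no symbol where an array of its reference organ is flagged as not detecting the miRNA). The striated muscle miRNAs lie under the line in all 3 panels, with rat 4 the highest in the panels of limb muscle and tongue, and miR-199a-5p and miR-214 lie above it.

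The 3 skin samples differed among themselves in these same miRNAs. Of the miRNAs detected on all skin arrays, 16 were more than 2-fold higher in rat 4 than in both other rats (9.7%) and 1 was more than 2-fold lower (0.606%). The 16 were miR-1, miR-133a, miR-133a*, miR-133b, miR-206, miR-378*, miR-31, miR-127, miR-128, miR-154, miR-327, miR-329, miR-335, miR-381, miR-434 and miR-483*. All 5 striated muscle miRNAs detected in skin were among them, with rat 4 at 3.34 times the mean of the others for miR-1 and 2.61 times for miR-206. These values describe 3 animals, with no test. Each rat's skin also shared its slide with liver, kidney, lung, heart atrium and interventricular septum of that rat. Against the mean log2 value of these 5 organs miR-203 was higher by 5.80, 6.38 and 6.80 in rats 4, 5 and 6. By the same measure miR-1 was higher by 5.07, 3.51 and 3.15 and miR-206 by 6.68, 5.40 and 5.18. Heart atrium (13989 to 15996) and interventricular septum (13094 to 14241) themselves held more miR-1 than any skin array.

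A further 5 of the 16, miR-127, miR-434, miR-329, miR-381 and miR-154, lie in an imprinted cluster of miRNAs, within chr6:134328510-134574387 on the plus strand. The share of this cluster among all miRNAs detected on every skin array was not counted, so the 5 cannot be set against it. miR-127 gave 124 in rat 4, 46.5 in rat 5 and 61.1 in rat 6, and miR-434 gave 109, 35.8 and 44.4. In limb muscle they were higher on average than in skin, with miR-127 at 118 and miR-434 at 161. The 1 miRNA that was low in rat 4 was miR-196b (31.6, against 116 and 121 in rats 5 and 6), whereas miR-196a, 1 base apart from it, gave 112, 115 and 130.

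The epithelial miRNAs were ordered the other way. Of 13 detected members of the squamous list, the miR-200 family and the miR-183 cluster, 11 were lowest in rat 4 and highest in rat 6, and the remaining 2, miR-31 and miR-31*, were the reverse. Over all miRNAs detected on the 3 skin arrays 17.6% were lowest in rat 4 and highest in rat 6, and 18.8% were the reverse. A similar opposition was seen in esophagus, where the rat with the most miR-203 (7927, rat 6) had the least miR-1 (3195). The part that the share of muscle in each piece of skin has in these values was not tested.

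Of the 6 smooth muscle miRNAs listed, 2 were detected on all skin arrays, miR-143 and miR-145, and 4 on none. miR-143, which with miR-145 marks vascular and visceral smooth muscle, gave 1218, 1225 and 1270, place 34 of 55 (difference -0.41 ± 0.24, adjusted p = 0.10). miR-145 gave 24.8, 22.4 and 30.6, place 35 (difference -0.68, adjusted p = 0.035). Without scaling the miR-145 difference was 0.0037 and not called. Of 5 tested members of the smooth muscle list 3 were lower, 0 higher and 2 not called, a share near the 56.2% lower over all tested miRNAs, and against limb muscle, tongue and esophagus 0 of 5 were called.

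The mesenchymal miRNAs were where skin ranked highest. Skin was first of 55 organs in 2 of 345 tested miRNAs (0.58%), miR-199a-5p and miR-214. miR-199a-5p gave 844, 694 and 897, followed by trachea (495 to 720) and soleus muscle (393 to 733), whose ranges overlapped that of skin, and aorta (430 to 658), whose range did not. miR-214 gave 845, 672 and 714, followed by trachea (535 to 599) and soleus muscle (300 to 822), of which soleus overlapped. miR-199a-3p gave 3054, 2567 and 3175, second to trachea (2583 to 3270). In the authors' table skin was second for miR-199a-5p and miR-214, and after quantile normalization it was second for miR-214 and first for miR-199a-3p.

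These 3 were higher in skin in all 4 comparisons, in which 14.8%, 18.0%, 15.9% and 10.1% of all tested miRNAs were higher. In no other list did that hold for all tested members. This list is small, with both arms of the miR-199a hairpin and miR-214 of the same transcript, so its members are not independent. Against the other 54 organs miR-199a-5p was higher by 3.05 ± 0.27 (adjusted p = 7.9e-19 in limma), miR-214 by 2.95 ± 0.26 (adjusted p = 2.2e-19) and miR-199a-3p by 2.77 ± 0.28 (adjusted p = 3.2e-16). The medians were 2.95 against the other organs, 1.39 against limb muscle, 1.66 against tongue and 2.55 against esophagus. With slide as a fixed block the 3 calls against limb muscle were lost (differences 0.87 to 1.23), and with the 75th percentile over all miRNAs miR-199a-3p was not called against limb muscle (0.80, adjusted p = 0.059) or tongue (0.98, adjusted p = 0.074). In contrast to the muscle miRNAs, they varied little between the rats, and none of them was 2-fold higher in rat 4.

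miR-224_v15.0 gave 125, 106 and 147 in skin, second to the pituitary gland (175 to 211) and ahead of tongue (45.9 to 106), and was detected on 56 of the 162 other arrays. It was higher in skin than in the other organs by at least 6.57-fold (adjusted p = 5.5e-44 in limma) and than in esophagus, where 1 of 3 arrays detected it, by at least 6.74-fold. With normexp correction its difference from esophagus was -0.03 (adjusted p = 0.94).

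The miRNAs with the seed AGCAGCA, which is known for its targets among cell cycle genes, were not equally high. miR-195 gave 1558, 1154 and 1319 and miR-497 1156, 935 and 1022, with skin second to cerebellum for both. They lie 315 bases apart at chr10:55450172-55450529. miR-322 gave 373, 450 and 515 (place 8), and its neighbor miR-503, with the seed AGCAGCG, gave 24.4, 24.3 and 24.1 (place 3). Against the other organs miR-322 was higher by 1.90 ± 0.19, miR-195 by 1.67 ± 0.17, miR-497 by 1.58 ± 0.16 and miR-503 by 1.07 ± 0.08. miR-16 (0.14 ± 0.12, adjusted p = 0.26) and miR-15b (-0.01 ± 0.16, adjusted p = 0.96) share the seed and did not pass the threshold. Within the rat, skin held 407%, 333% and 1037% of the miR-322 of esophagus.

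**Figure D4:**
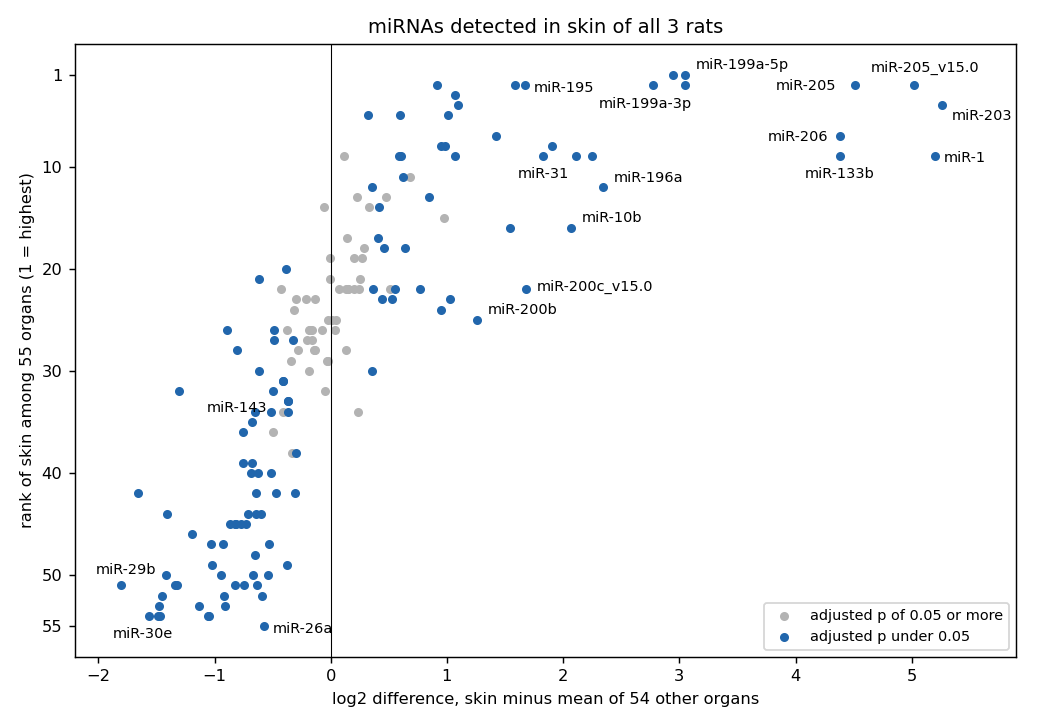
Difference of skin from the mean of the 54 other organs (x axis, log2 units) against the rank of skin among 55 organs (y axis, 1 is highest) for the miRNAs detected in the skin of all 3 rats; blue points passed an adjusted p of 0.05. The striated muscle and epithelial miRNAs lie at the far right, miR-199a-5p at the top, and miR-26a at the lowest rank.

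The miRNAs encoded within the HOX clusters, whose expression follows the position along the body, separated skin from tongue. All 5 tested members were higher in skin than in tongue (median 2.82), beside 15.9% of all tested miRNAs. With normexp correction the calls of miR-196a (0.85), miR-196b (0.52) and miR-196c (-0.16) against tongue were lost. miR-10a-5p, next to HOXB4, gave 346, 274 and 265 in skin and 24.9, 26.9 and 24.6 in tongue, a difference of 3.53 ± 0.30 (adjusted p = 1.5e-19 in limma). miR-196a gave 112, 115 and 130 in skin and was not detected on any tongue or esophagus array, which made it higher in skin by at least 10.9-fold and 8.19-fold. Against esophagus 4 of 5 were higher (10.1% of all tested), and miR-10a-5p was not called (-0.23 ± 0.30). With normexp correction, which shifted the median difference from esophagus by -1.07, the signs of miR-196a, miR-196b and miR-196c turned in that comparison.

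Against limb muscle 3 of 5 HOX miRNAs were lower in skin (21.7% of all tested) and 0 higher (median -0.55). miR-196a was lower by 1.27 (adjusted p = 1.2e-09), and miR-10b, with 966, 819 and 774 in skin, differed by -0.03 ± 0.25. Without scaling the miR-196a difference was -0.19 (adjusted p = 0.83). miR-196b, lower by 0.55, turned to 0.09 without rat 4 and to 0.53 without scaling, and its call was lost under 7 further alternatives (-0.69 to -0.50). Against all 54 organs miR-196a was higher by 2.35 ± 0.16, miR-10b by 2.07 ± 0.22 and miR-196b by 1.55 ± 0.19. With normexp correction miR-196a fell to 0.25 (adjusted p = 0.35) and miR-196b turned to -0.11. In differences within the rat miR-196b lost its call (adjusted p = 0.090) at an unchanged 1.55.

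Some well detected miRNAs were lower in skin than in the mean of the other organs. miR-29b, a repressor of collagen genes, gave 424, 408 and 500 (place 51 of 55), miR-29c 341, 265 and 376 (place 54) and miR-29a 1367, 1053 and 1157 (place 52). They were lower than the mean of the other organs by 1.81 ± 0.13, 1.48 ± 0.15 and 0.91 ± 0.10 and share the seed AGCACCA. miR-29b was lower than in tongue and esophagus by 0.50 and 0.80 and higher than in limb muscle by 0.51. miR-30e gave 129, 118 and 137 (place 54) and was lower in all 4 comparisons (by 1.56, 2.01, 1.80 and 0.77). miR-26a gave 2118, 1595 and 1947, the lowest mean of the 55 organs, at a difference of only -0.57 ± 0.09. Of the 67 lower calls that were detected on all skin arrays, skin was among the lowest 5 organs in 18.

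The 3 largest lower calls, miR-7a, miR-375 and miR-192, were not detected on any skin array. miR-7a, known from pituitary and pancreatic islets, was detected on 131 of the 162 other arrays and was highest in the pituitary gland, with a mean of 21840. miR-375, an islet and gland miRNA, was detected on 63 of them and was highest in pancreas, with a mean of 5873. All 7 tested members of the list of neurons and glia were lower (56.2% of all tested miRNAs were), with a median of -1.55, among them miR-9*, miR-9 and miR-124. miR-338 (39.2, 28.3 and 40.5) and miR-128 (84.4, 34.8 and 30.7) were the only 2 of the 7 detected on all skin arrays.

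Markers of blood and vessel cells were at middle levels in skin. miR-126 of endothelium gave 761, 522 and 503 (difference -0.16 ± 0.21) and was lower than in limb muscle by 1.21. miR-451 of red blood cells gave 50.2, 41.7 and 17.0 (difference -0.38 ± 0.55, adjusted p = 0.53). Of 5 tested leukocyte miRNAs miR-223 of myeloid cells (292, 286 and 272) and miR-146a (322, 301 and 343) were higher in skin by 0.85 and 0.64. The lymphocyte miRNA miR-150 and both arms of the miR-142 hairpin were lower, as were 56.2% of all tested miRNAs. Without scaling the miR-150 difference was 0.018 (adjusted p = 0.97). miR-211 of pigment cells was not detected on any skin array of these albino rats, and its relative miR-204 gave 140, 102 and 110.

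Over the 345 tested miRNAs the mean skin profile was most like those of esophagus (Pearson r = 0.950) and tongue (r = 0.946), then bladder (0.926) and the anterior stomach (0.926), which in the rat is lined by squamous epithelium. Rat by rat the order differed, with tongue (0.956) ahead of esophagus (0.934) in rat 4, and the anterior stomach and bladder (both 0.934) ahead of esophagus (0.930) and tongue (0.916) in rat 6. These 4 are filed under muscle like skin. In the mean profile soleus (0.873), gastrocnemial (0.856) and femoris (0.847) muscle came after thyroid, Harderian gland, the prostate other than its ventral lobe, trachea and seminal vesicle. Rats 5 and 6 had the same order, but rat 4 did not. There soleus (0.891), gastrocnemial (0.890) and femoris (0.877) muscle came ahead of thyroid (0.849), that part of the prostate (0.856), trachea (0.850) and seminal vesicle (0.847). By category the median r was 0.857 for the 13 muscle organs (0.764 to 0.950), 0.840 for the 6 organs filed under others, 0.816 for the reproductive system, 0.810 for glands, 0.736 for lymphoid or hematopoietic organs, 0.696 for the intestines and 0.602 for the nervous system, and thalamus was least like skin (0.455). These are correlations across miRNAs and share the array and the scaling. Each skin array was nearest to another skin array, and the nearest array of another organ was esophagus of rat 5 for all of them (r = 0.960, 0.953 and 0.946).

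**Figure D5:**
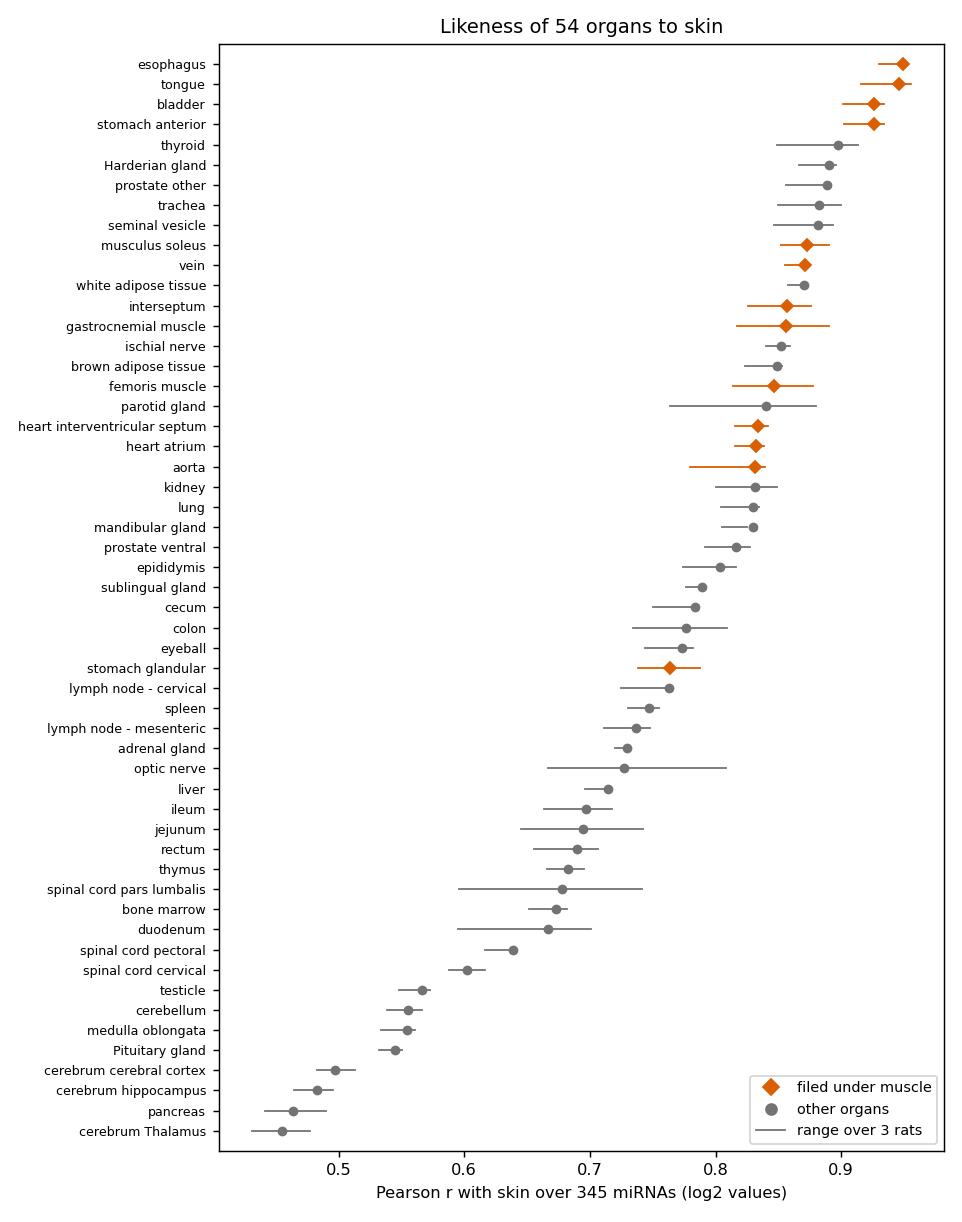
Pearson correlation of the mean log2 profile of skin with each of the 54 other organs over 345 miRNAs; lines give the range over the 3 rats and diamonds mark organs filed under muscle. Esophagus (0.950) and tongue (0.946) are nearest, and thalamus (0.455) and pancreas are farthest.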

How the data were processed

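Skin of perfused rats 4, 5 and 6 was compared with the 54 other organs of these rats on 1-color miRNA arrays. The authors deposited the output of Agilent Feature Extraction 10.7.3 per array, with a background-corrected signal intensity for each of 14340 spots, and a table of normalized signal intensities. From the deposited intensities, outlier spots (1.63% to 6.42% of an array) were left out here, and the others were averaged per probe and then per miRNA. Scaling brought the 75th percentile of every array, taken over 37 miRNAs with detection on each of the 180 arrays, to 2118. Lower values than 10.8 were raised to it before log2. Detection on an array required that more than 50% of a miRNA's spots passed the scanner's background test. No spot was saturated (0 over all arrays), and the number of arrays limits the precision. No column was left without a sample (0).

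limma 3.58.1 (R 4.3.3) was fitted with a term per organ over the 165 perfused arrays, and the contrasts were skin minus the mean of 54 organs, of the 3 limb muscles, of tongue and of esophagus, two-sided, with Benjamini-Hochberg adjustment over 345 miRNAs. Each organ came from 3 separate rats, so p-values measure the spread between rats, pooled over the organs. The replicate number is the rat, so arrays pair across organs by animal. Residuals correlated by 0.050 on average within a rat (rat 4 0.033, rat 5 0.061, rat 6 0.054) and by -0.025 between rats. For 8 arrays the labels give 2 rat numbers (5 in the title, used here, and 6), among them the 3 limb muscle arrays of rat 5. A bound in fold ("at least") sets the group without detection at the highest of its own signal, the lowest detected signal of the array and the floor, and a mean over 54 organs holds those under the floor at it.

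The miRNAs named were those of the cell type lists, the 15 largest higher and 10 largest lower differences from the 54 organs, those with skin first, the 5 largest each way in the other comparisons and the 10 brightest in skin. Those outside this rule (miR-195, miR-497 and relatives, miR-29a, miR-29c, miR-26a, miR-152, miR-27a, miR-378, miR-503, miR-542-3p, miR-542-5p and the miRNAs that were high in rat 4) were named after their values were seen. The members and lists were chosen with earlier results of these data known. Probes of miR-155 are not in the array design. Alternatives changed the scaling, floor, background, spot summary, filter, blocks, organs and arrays. The planned background correction was to use mean spot signals and was run on median spot signals (normexp, offset 50). The authors' table has 21 control rows, not used here, and was an alternative. The contrasts were tested on simulated data. Other versions were Python 3.11.15, numpy 2.4.6, pandas 2.3.3, scipy 1.17.1 and matplotlib 3.10.9.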

Additional observations from a re-analysis of the deposited data

How the results depend on the processing

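With rat as a fixed replicate block the counts of higher and lower calls were 51 and 196 against the 54 organs, 62 and 76 against limb muscle, 55 and 35 against tongue and 36 and 35 against esophagus, and within-rat differences from the 54 organs gave 37 and 205. The pairing changed no count by over 1.5 times. Leaving out each skin array in turn gave 46 to 49 higher and 150 to 174 lower calls against the 54 organs, 50 to 65 and 65 to 73 against limb muscle, 47 to 57 and 24 to 36 against tongue, and 32 to 35 and 28 to 36 against esophagus. Of 5126 values recomputed, 4656 kept their direction and their side of the threshold, 168 gained a call, 243 lost one and 59 reversed.

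The counts moved by over 1.5 times as follows, and the cause was not tested except where fewer miRNAs were tested or the median of all differences shifted. Without scaling, which shifted the median by 0.50, 0.63, 0.17 and 0.40 in the 4 comparisons, there were 80 higher and 96 lower calls against the 54 organs, 109 and 21 against limb muscle, 21 lower against tongue and 10 lower against esophagus. The share of higher calls went from 20.8%, 45.3%, 61.1% and 51.5% to 45.5%, 83.8%, 66.1% and 83.9%. The authors' table gave 85 higher calls against the 54 organs, and shares of 39.5%, 48.3%, 51.4% and 63.3%. Scaling over all miRNAs gave 41 higher calls against limb muscle, 30 higher and 70 lower against tongue and 51 lower against esophagus, with shares of 23.0%, 31.3%, 30.0% and 37.8%. Quantile normalization gave shares of 31.2%, 50.4%, 48.4% and 60.0%. A floor 4 times as high gave 30 higher calls against the 54 organs, 38 higher and 46 lower against limb muscle, 33 higher against tongue and 19 higher and 20 lower against esophagus. Normexp gave 18 higher and 123 lower calls against the 54 organs, 16 higher against limb muscle, 13 higher and 20 lower against tongue and 9 higher and 292 lower against esophagus, where it shifted the median by -1.07. With only the 144 miRNAs detected on at least 50% of arrays there were 30 higher and 73 lower calls against the 54 organs, 49 lower against limb muscle and 20 higher against esophagus. Slide as a fixed block gave 128 lower calls against the 54 organs and 26 higher against limb muscle. The Spearman correlation with esophagus was 0.915.

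Directions reversed in these cases. Against the 54 organs the authors' table gave let-7a 0.042, let-7c 0.40, miR-182 0.16 and miR-381 0.48. No scaling gave let-7a 0.35, let-7c 0.70, let-7f 0.18, miR-145 0.0037, miR-150 0.018, miR-182 0.090 and miR-381 0.077. Quantile normalization gave let-7a 0.12 and let-7c 0.83. The higher floor gave miR-139-3p -0.21, miR-183 -0.36, miR-196c -0.24, miR-299 -0.20, miR-31* -0.22 and miR-378* -0.39, and the lower floor miR-182 0.40 and miR-381 0.58. Normexp gave miR-139-3p -0.50, miR-141 -0.72, miR-183 -0.59, miR-196b -0.11, miR-196c -0.58, miR-200a -0.37, miR-200b -0.10, miR-299 -0.53, miR-31* -0.49, miR-378* -0.70, miR-429 -0.32 and miR-96 -0.36. Against limb muscle no scaling gave miR-10a-5p 1.02, miR-10b 1.05, miR-196b 0.53, miR-196c 0.21, miR-23b 0.97 and miR-34a 0.92, quantile normalization miR-23b 0.35, normexp miR-183 -0.065, miR-200c -0.26 and miR-31* -0.30, and leaving out each skin array in turn gave miR-196b -0.88 to 0.085. Against tongue normexp gave miR-183 -0.013, miR-196c -0.16, miR-200c -0.13 and miR-31* -0.20. Against esophagus normexp gave miR-126* -1.20, miR-145 -1.18, miR-196a -0.12, miR-196b -0.46, miR-196c -1.12, miR-204 -0.45, miR-224_v15.0 -0.026 and miR-31* -1.14, no scaling gave miR-182 0.081, and slide as a fixed block miR-200a 1.98 and miR-200c_v15.0 1.79. Signals near background limit the dim miRNAs, whose differences depend on the floor.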

Other observations

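Further miRNAs of neighboring genes were high in skin without being first. miR-27a, with 1875, 2205 and 2664 in rats 4, 5 and 6, put skin in place 4 of 55, and miR-23a (3983, 4412 and 5955) in place 8. They were higher than the mean of the 54 organs by 1.09 ± 0.10 and 0.95 ± 0.14, and miR-27a was lower than in esophagus by 0.48 (adjusted p = 0.0085 in limma). miR-152 gave 201, 157 and 195 in skin and was higher in all 4 comparisons, by 1.43, 1.42, 1.81 and 1.97. miR-542-5p (32.9, 27.5 and 27.7) and miR-542-3p (19.5, 18.6 and 22.9) were higher than in the 54 organs by 1.01 and 0.60, with skin in place 5 for both.

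The comparisons with tongue and esophagus also held dim miRNAs of unlike direction. miR-3584-5p gave 134, 84.7 and 85.5 in skin, higher than in tongue by 2.86 and lower than in esophagus by 2.64. miR-327 (53.6, 26.7 and 18.5) was higher than in tongue by 1.46 and lower than in esophagus by 2.00. miR-139-3p and miR-652* were lower than in esophagus by 2.86 and 2.48. Against tongue miR-381 (by 2.41), miR-299 (by 2.28) and miR-136 (by 2.21) were lower in skin, and against esophagus their differences were 0.06, 0.19 and 0.35 with none called.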
